A study of Homo sapiens with 6 samples.

Results

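Interferon regulatory factors are transcription factors that turn the sensing of viral nucleic acid, or a signal from an interferon receptor, into transcription of antiviral genes. The members examined here were Irf1, Irf2, Irf3, Irf4, Irf5, Irf7, Irf8 and Irf9, chosen by gene symbol. Of these 8 genes, 7 had a row among the 22989 genes of the count table, and all 7 passed the filter on low counts that left 13497 genes for the test. No row of the table used here is named Irf4, so Irf4 was not analysed here.

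RNA was sequenced in 3 LINC00115 KD libraries, from cells carrying a short hairpin RNA against the long noncoding RNA LINC00115, and in 3 control libraries, labelled WT. All 6 are described as paclitaxel (PTX)-resistant MDA-MB-231 BCSC, the cells with high aldehyde dehydrogenase activity sorted from a human triple-negative breast cancer line. The comparison addresses what LINC00115 KD changes in these cells. The study names the hairpin sh115-2 for its plot of these expression changes, while the labels describe the KD libraries as sh115-1, sh115-2 and sh115-3, so whether all 3 carry the same hairpin is not settled. Whether the WT controls carry a control shRNA is not stated for these libraries. The study describes its data as representative of repeated independent experiments, but neither it nor the labels say that these libraries came from separate cultures, and p-values then measure the spread between these libraries, which may be technical.

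The libraries held between 36979221 and 38799331 counts. The knockdown could not be checked, because 0 rows are named LINC00115, and every direction therefore rests on the labels. The symbols are in mouse style, with 4650 Gm names and 1129 Rik names, and 62.7% of them equal a human symbol apart from case. The 7 members do so too and are printed as the table gives them. As written, only 16 of the 22989 symbols equal a human one, and well-counted genes such as Oasl1 and Oas1a carry mouse names. The rows are thus named by a mouse annotation, while the labels and the named builds are human. The species of the RNA that was sequenced is not settled by the names. Of the genes that describe the labelled line, Vim, Cd44, Axl, Krt8 and Krt18 were abundant in every library, between 129 and 3736 normalized CPM (a gene's count relative to its TMM-scaled library total) as group means. Others of the 15 genes listed for the line were weak. Epcam and Aldh1a3 were at or near 0, with at most 5 counts in any library, and Krt19 had 1 to 7. Krt7 had 1 to 4 counts in the controls and 49 to 74 in the KD libraries, and Aldh1a1 8 to 17 and 39 to 52. Egfr had 5.75 normalized CPM in the controls and 9.31 in the KD libraries on average. The lung gene Scgb1a1 had 0 counts in each control library and 1516 to 1843 in the KD libraries. For 15 of 15 lung markers the KD libraries lay above the controls without overlap, as they did for 37.8% of all genes tested.

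The family shares an amino-terminal domain that binds repeats of GAAA. IRF3 and IRF7 lie in the cytoplasm until the kinases TBK1 and IKKε phosphorylate them, and they then induce the interferon genes. IRF9 is the DNA-binding subunit of the complex ISGF3, in which it is joined to STAT2 and which binds the interferon-stimulated response element (ISRE). IRF1 is an activator that interferon gamma induces through the gamma-activated site (GAS), and IRF2 competes with it for the same DNA. IRF5 acts below Toll-like receptors, and IRF4 and IRF8 are best known from lymphoid and myeloid cells.

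To show regulatory sequence of the members, the promoters of the human genes were read from RefSeq (GRCh38.p14). Each window ran from 250 bases before the start to 50 bases after it, counting the start itself. The table held 9 windows for 5 of the 8 members, and none for IRF2, IRF3 and IRF7. Both strands were searched for the ISRE core GAAANNGAA and for the GAS motif TTCNNNGAA, which reads the same on both strands. The windows shown are the 3 that held a match, with the match in capitals. They are the human promoters, and the symbols of the table are in mouse style.
IRF1, chr5:132490724-132491023, minus strand: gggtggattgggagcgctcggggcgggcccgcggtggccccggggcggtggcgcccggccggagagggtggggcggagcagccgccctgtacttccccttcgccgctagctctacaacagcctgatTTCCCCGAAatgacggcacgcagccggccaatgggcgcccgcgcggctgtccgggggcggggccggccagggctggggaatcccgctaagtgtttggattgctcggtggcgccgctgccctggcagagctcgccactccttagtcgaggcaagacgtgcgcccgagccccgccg
IRF9, chr14:24161015-24161314, plus strand: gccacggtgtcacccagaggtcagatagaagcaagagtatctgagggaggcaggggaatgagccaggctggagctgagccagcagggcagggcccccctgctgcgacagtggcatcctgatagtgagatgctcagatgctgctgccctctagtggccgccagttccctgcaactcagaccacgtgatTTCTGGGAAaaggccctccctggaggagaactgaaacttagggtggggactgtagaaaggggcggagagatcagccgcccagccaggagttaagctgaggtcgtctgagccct
IRF5, window 4, chr7:128941018-128941317, plus strand: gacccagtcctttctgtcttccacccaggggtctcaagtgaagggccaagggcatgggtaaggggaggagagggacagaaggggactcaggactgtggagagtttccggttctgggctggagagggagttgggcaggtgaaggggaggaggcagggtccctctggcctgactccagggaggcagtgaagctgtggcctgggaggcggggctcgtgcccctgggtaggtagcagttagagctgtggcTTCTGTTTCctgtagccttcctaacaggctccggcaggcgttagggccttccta

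The IRF1 window held 1 GAS match, TTCCCCGAA, starting 124 bases before the transcription start, and the IRF9 window held 1, TTCTGGGAA, starting 63 bases before it. The IRF5 window held 1 ISRE core, TTCTGTTTC, which begins 4 bases before the start and spans it. Among 34943 promoters of the same length, 8.10% held the ISRE core and 7.66% the GAS motif. The 2 IRF8 windows, the IRF4 window and the other IRF5 windows held neither motif, which says only that these letters are not in these windows.

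Irf7 rose most of the family. It had 71.7, 69.3 and 73.4 normalized CPM in the control libraries and 452, 443 and 467 in the KD libraries. The lowest KD library lay 6.03 times above the highest control library. The fitted change was 6.35-fold, a log2 fold change of 2.67 with a standard error of 0.04 (n = 3 each). By the edgeR quasi-likelihood test its p, adjusted by Benjamini-Hochberg over the whole table of tested genes, was 1.00e-34. IRF7 is itself induced by interferon and amplifies the interferon response.

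Irf5 and Irf9 rose as well. For Irf5, the control libraries had 6.24, 3.92 and 4.42 normalized CPM and the KD libraries 15.8, 15.9 and 18.1, and the groups did not overlap. Irf5 rose 3.41-fold, by 1.77 ± 0.13 on the log2 scale (± standard error here and for the members that follow, edgeR adjusted p = 4.03e-14). Irf5 rested on the fewest control counts of the family, 235, 148 and 167. Its spread between control libraries, a coefficient of variation of 25.1%, was wider than the 7.39% of counting error alone. For Irf9, the control libraries had 45.6, 48.6 and 53.9 normalized CPM and the KD libraries 100.1, 104.3 and 99.8, again without overlap. The log2 fold change of Irf9 was 1.04 ± 0.05 (edgeR adjusted p = 1.28e-18), just past the threshold of a 2-fold change. It was 0.98 without control replicate 1 and 0.997 with upper quartile scaling, and Irf9 was then not called.

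Irf8 fell. It had 12.6, 11.7 and 11.6 normalized CPM in the control libraries and 6.70, 4.93 and 5.56 in the KD libraries, so that every KD library lay below every control library. The log2 fold change was −1.06 ± 0.13 (edgeR adjusted p = 5.13e-09), a level 2.09-fold higher in the controls. Without KD replicate 2, the lowest library, it was −0.96 and not called, which left 0 members called lower. In bulk RNA, fewer cells that express a gene and less of its RNA per cell cannot be told apart.

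Irf1, Irf2 and Irf3 differed between the groups by less than 2-fold. The activator Irf1 had 76.7, 67.9 and 74.1 normalized CPM in the controls and 133, 141 and 137 in the KD libraries, a log2 fold change of 0.91 ± 0.05 (edgeR adjusted p = 1.10e-18). Irf2, its competitor, had 21.3, 22.9 and 23.3 in the controls and 35.5, 33.0 and 35.7 in the KD libraries, a log2 fold change of 0.63 ± 0.07 (edgeR adjusted p = 1.03e-09). Both were higher in every KD library. Irf3, which most cells make at a steady level, had 23.0, 19.2 and 18.9 in the controls and 16.2, 14.7 and 15.2 in the KD libraries, a log2 fold change of −0.41 ± 0.09 (edgeR adjusted p = 0.000169). The lowest control library of Irf3 was 1.17 times the highest KD library, the narrowest gap of the 7 members.

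**Figure D1:**
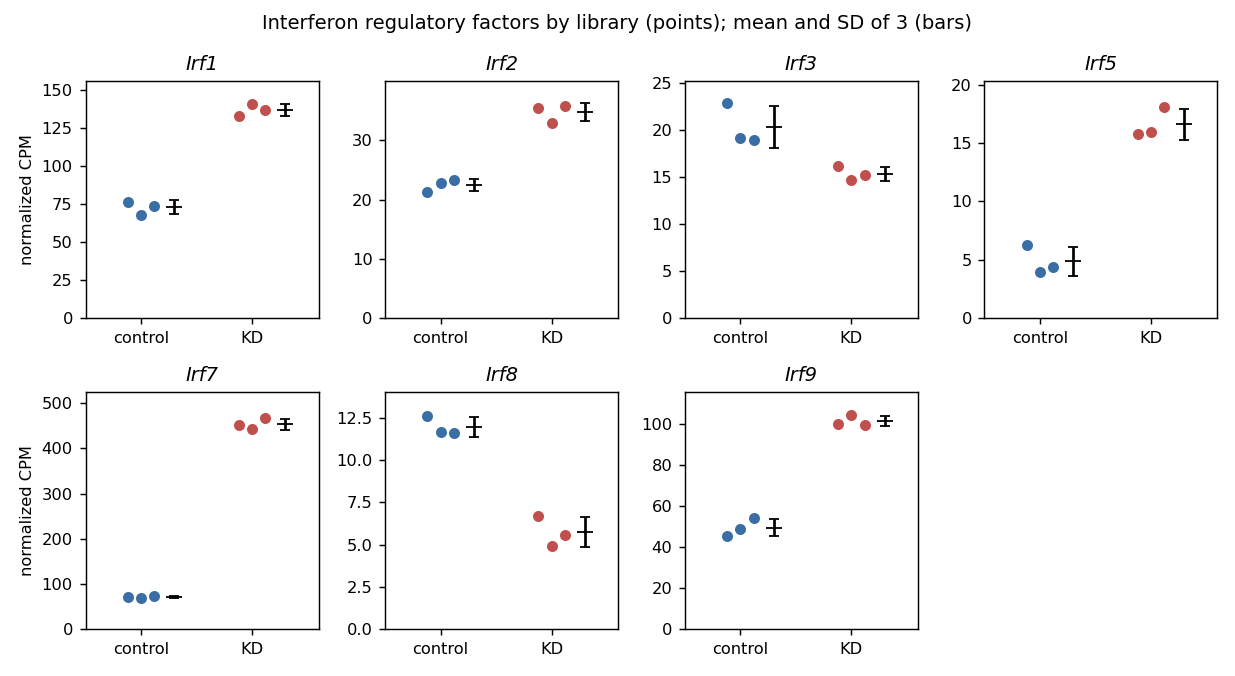
Normalized CPM (y axis, from 0, a scale of its own for each gene) of the 7 members in the 3 control and 3 LINC00115 KD libraries (points), with the mean and SD of each group beside them. In each panel the groups are apart, with KD above control for Irf1, Irf2, Irf5, Irf7 and Irf9 and below it for Irf3 and Irf8.

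The study's methods ask for a change of more than 2-fold with an adjusted p under 0.05. By these limits 3 of the 7 members were called higher and 1 was called lower. Of all genes tested, 10.2% were called higher and 9.98% lower. All 7 members had an adjusted p under 0.05, as had 73.4% of all genes tested, so that alone sets no member apart. The KD libraries lay above the control libraries without overlap for 5 members and below them for 2, and for 37.8% and 37.8% of all genes tested. The median log2 fold change was 0.91 over the 7 members and −0.01 over all genes tested.

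**Figure D2:**
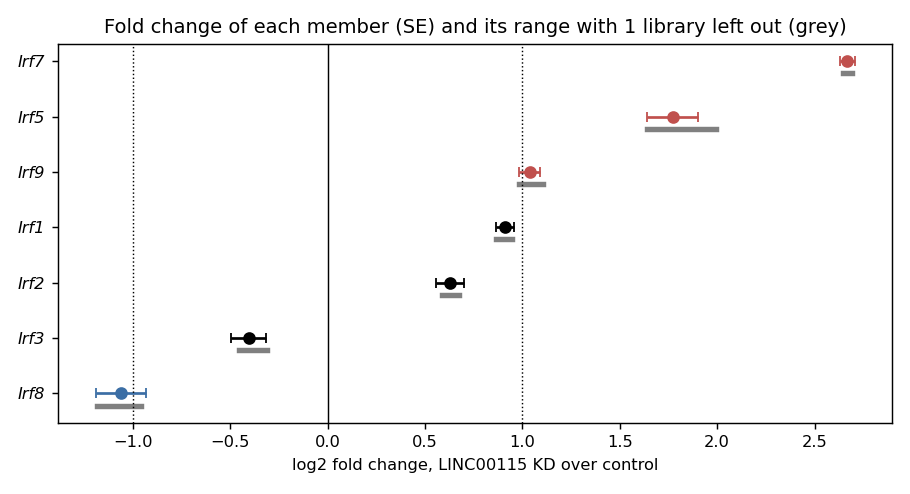
Log2 fold change of each member, LINC00115 KD over control (x axis; points with standard errors, red called higher, blue called lower, black not called), with the range over 6 fits that each left out 1 library (grey bars) and dotted lines at a 2-fold change. Irf7, at 2.67, and Irf5, at 1.77, stay clear of the line, while the grey bars of Irf9 and Irf8 cross it.

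Within a library, the make-up of the reads on the family shifted toward Irf7. The 7 members together had 243 to 260 normalized CPM in the controls and 756 to 778 in the KD libraries, and without Irf7 174 to 186 and 308 to 314. Irf7 took 27.9% to 28.5% of the family's counts in the control libraries and 58.5% to 60.0% in the KD libraries. Irf1 took 28.8% on average in the controls and 17.9% in the KD libraries, and Irf8 4.73% and 0.75%. These are shares of reads, not of molecules, since they are not corrected for the length of each gene.

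Ratios of members with known opposing or joint roles were compared within libraries, where scaling between libraries has no part. The log2 ratio of Irf7 to Irf3 was 1.64, 1.85 and 1.95 in the controls and 4.80, 4.91 and 4.94 in the KD libraries, a difference of 3.07. The log2 ratio of Irf1 to its competitor Irf2 was 1.85, 1.57 and 1.67 in the controls and 1.91, 2.09 and 1.94 in the KD libraries. The difference of 0.28 compares with an SD of 0.14 in the controls and 0.10 in the KD libraries. The log2 ratio of Irf9 to Stat2, its partner in ISGF3, was −0.16, −0.02 and −0.09 in the controls and −1.161, −1.155 and −1.161 in the KD libraries, so that Irf9 rose less than Stat2. For each of these 3 ratios the groups did not overlap and the two-sided exact permutation p was 0.1 (0.1 after adjustment over the 3), the smallest that 3 libraries against 3 allow.

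The other genes of the pathway were read from lists ordered by role. The interferons themselves were near the floor. Of 10 interferon genes with a row, 6 had at most 3 counts in every library and only Ifnb1, the gene of interferon beta, was tested. Ifnb1 had 1, 5 and 1 counts in the controls and 40, 66 and 87 in the KD libraries and was called higher (edgeR adjusted p = 1.56e-08). It is named after its values were seen, since it lies under 100 counts.

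Among the sensors and adaptors that signal to IRF3, IRF5 and IRF7, 6 of 18 genes tested were called higher and 0 lower by both limits. The weakest of these calls was Tlr7, a receptor for single-stranded RNA, which is singled out after its values were seen. It had 4 to 8 counts in the controls and 13 to 23 in the KD libraries (edgeR adjusted p = 0.0339). The count was 5 with DESeq2, with the replicate block, with either other count filter, and without control replicate 1 or 2 or KD replicate 1 or 2. The others included Zbp1, a sensor of Z-form nucleic acid (27.4 ± 3.42 to 324 ± 10.5 normalized CPM, SD, n = 3 each), Tlr3, a receptor for double-stranded RNA (log2 fold change 2.41), and the cytosolic RNA sensors Dhx58 (2.27) and Ifih1 (2.23). Of all genes tested, 73.4% had an adjusted p under 0.05 (edgeR) in either direction. By that limit alone, 14 of the 18 sensors and adaptors were higher and 3 lower. Those 3 were Ticam1 (log2 fold change −0.67), Sting1 (−0.57) and Tbkbp1 (−0.21). Against 10.2% higher and 9.98% lower of all genes tested, 0 of the 7 kinases that phosphorylate interferon regulatory factors were called higher and 1 lower. That gene was Ikbke, which encodes IKKε. It fell from 73.6 ± 6.80 to 34.0 ± 1.84 normalized CPM, a log2 fold change of −1.11 ± 0.06 (standard error, edgeR adjusted p = 1.20e-17). Tbk1 differed by −0.11 on the log2 scale, with 68.2 and 63.2 normalized CPM on average, and was not called.

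Of the receptors, JAK kinases and STAT factors on the path to IRF9, 2 of 10 genes tested were called higher and 1 lower. Of all genes tested, 10.2% were called higher and 9.98% lower. Stat2 had 52.5 ± 4.35 normalized CPM in the controls and 226 ± 5.05 in the KD libraries. Tyk2, the kinase bound to the interferon alpha and beta receptor, fell from 50.6 to 20.6 normalized CPM (log2 fold change −1.30). Of 7 feedback inhibitors, 3 were called higher and 1 lower. Higher were Usp18, which blocks that receptor (log2 fold change 2.32), Trim21 (1.16) and Socs1 (1.15), and lower was Ptpn6, which encodes the phosphatase SHP1 (−2.51).

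Known targets of ISGF3 were higher as a list, with a median log2 fold change of 2.33. Against 10.2% higher and 9.98% lower of all genes tested, 17 of 18 of these targets tested were called higher and 0 lower. The 4 largest changes were those of Rsad2 (5.25) and Cmpk2 (5.24), which lie next to each other in the genome, Ifit3 (4.83) and Oasl1 (4.21). Rsad2 went from 9.43 to 359 normalized CPM. Of 16 targets of IRF1 tested, 11 were called higher and 0 lower, with a median of 1.79. They included the immunoproteasome subunit Psmb9 (2.92 to 43.2 normalized CPM), the chemokine Cxcl10 (8.47 to 112) and Cd274, the gene of PD-L1 (1.43 to 12.4). By adjusted p under 0.05 alone (edgeR), 15 of the 16 were higher and 1, Nos2, lower. Of all genes tested, 73.4% passed that limit in either direction. Nos2 went from 686 to 522 normalized CPM, a log2 fold change of −0.39, and every KD library lay below every control. Cxcl9 had 0, 6 and 1 counts in the controls and 171, 209 and 139 in the KD libraries. Its log2 fold change, 6.14, was 8.12 without control replicate 2, which holds 6 of those 7 control counts. Usp18 and Socs1 each stand on 2 of these lists.

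**Figure D3:**
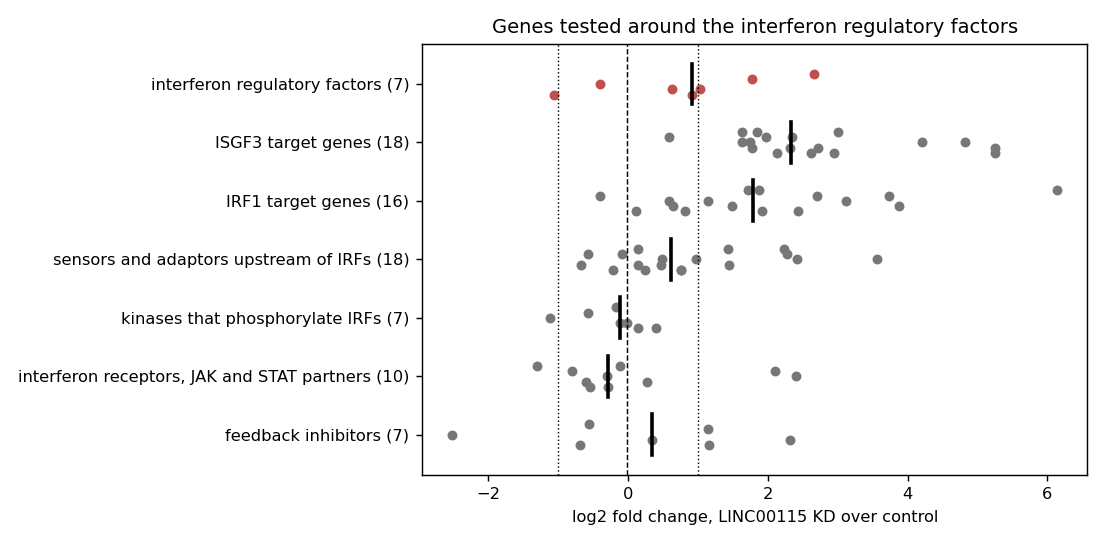
Log2 fold change, LINC00115 KD over control (x axis), of the 7 members (red) and of the tested genes of 6 lists around them (grey points, the number tested in brackets), with list medians (black bars), the median of all genes (dashed) and a 2-fold change (dotted). Of the list medians, those of the ISGF3 targets, at 2.33, and of the IRF1 targets, at 1.79, lie past a 2-fold change, and the medians of the kinases and of the receptor list lie below 0.

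The IRF2-binding genes Irf2bp1, Irf2bp2 and Irf2bpl, which encode partners of IRF2 in repression, were tested and 0 were called, at log2 fold changes of 0.64, 0.14 and 0.44. The factors with which IRF4 and IRF8 bind DNA were mostly near the floor. Spi1, the gene of PU.1, had 2 to 13 counts, Spib 0 to 8 and Ikzf1 0 to 5, and only Batf2 and Batf3 were tested. Batf2, named after its values were seen, was called higher, with 39 counts in each control and 77 to 99 in the KD libraries.

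Because Irf5 and Irf8 are known from leukocytes, leukocyte markers were read beside them. Of 22 markers with a row, 9 were tested, 5 were called higher and 0 lower, and their summed level was 89.3 to 101 normalized CPM in the controls and 196 to 212 in the KD libraries. Of all genes tested, 10.2% were called higher and 9.98% lower, the shares beside which the marker counts here stand. The leukocyte markers called higher were Cd14, S100a8, S100a9, Lyz2 and Cd74. Ptprc (CD45), which all leukocytes carry, had 5 to 12 counts in the controls and 8 to 13 in the KD libraries. Cd3e had 0 counts in every library and Csf1r at most 3. Lung markers summed to 20.6 to 29.1 normalized CPM in the controls and 116 to 128 in the KD libraries, and kidney markers to 16.8 to 19.6 and 46.1 to 49.6. Most of the control sums was Aqp5 for lung (mean 23.3) and Aqp1 and Cubn for kidney (8.21 and 8.28). Some others had 0 counts in each control, such as Sftpc, with 520 to 589 in the KD libraries, and Kap, with 311 to 466. Of the lung markers tested, 12 of 13 were called higher, and of the kidney markers 8 of 11. Of 8 stromal and endothelial markers tested, 2 were called higher, Cdh5 and Acta2, and 2 lower, Dcn and Pdgfra. Cdh5 had 5 to 14 counts in the controls and 2136 to 2243 in the KD libraries. The other endothelial genes listed did not show such a change. Pecam1 had 6 to 11 counts in the controls and 7 to 19 in the KD libraries, and Vwf 11 to 20 and 10 to 19. Kdr had at most 1 count in the controls and 2 to 10 in the KD libraries, and Tek at most 2 in any library. Of 11 genes of epithelial and MDA-MB-231 identity 4 were called higher and 0 lower. Whether the libraries hold RNA from such cells, and what part it would have in the changes of the members, was not tested.

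The genes most like a called member in pattern were found by the distance between log2 CPM, set relative to the control mean, over the 6 libraries, among 10835 other genes with at least 100 counts in each library of a group. Nearest to Irf7 were Ifrd1 (distance 0.10 log2 units), Tap1, a peptide transporter for MHC class I (0.11), and Tsc22d3 (0.11). Nearest to Irf9 were Nt5c2 (0.06), Htra2 (0.07) and Ogfr (0.08), nearest to Irf5 Grhl2 (0.25), Il19 (0.30) and Gm2396 (0.33), and nearest to Irf8 Ppox (0.12), Sertad1 (0.16) and Gm19589 (0.17). With 2 groups of 3 libraries, this likeness mostly records a similar size of change.

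In the human annotation (GENCODE 44 on GRCh37, the hg19 build named in the methods), the genes lie apart from each other, and their positions hold for the table only if human genes were counted, with IRF1 at chr5:131776132-131844411, IRF2 at chr4:185306856-185395712, IRF3 at chr19:50162826-50169132, IRF5 at chr7:128577511-128590092, IRF7 at chr11:612553-615983, IRF8 at chr16:85932722-85956212 and IRF9 at chr14:24630443-24637252. IRF3 overlaps BCL2L12 on the opposite strand over 734 bp. The use of strand in counting is not given in the sources used here. If human genes were counted, reads of this overlap may be split in ways not known. Bcl2l12 had 6.58 normalized CPM in the controls and 5.30 in the KD libraries. IRF1, IRF2 and IRF9 also overlap other annotated genes, which have no row in the table under the same name.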

How the data were processed

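Counts per gene were deposited by the authors without normalization, as 1 table of 22989 genes in 6 libraries. The methods state adapter trimming and mapping to hg19 with HISAT2 at default settings, while the submitters' processing notes list HISAT2, featureCounts, DESeq2 and hg38. Neither annotation nor strand setting is given in the sources used here, and 0 columns of values were left unused.

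Columns were assigned to samples by name. The filterByExpr function of edgeR 4.0.16 (R 4.3.3) removed weakly counted genes, with a minimum count of 10 and a minimum total of 15. After TMM scaling, the quasi-likelihood test was run with group as the only term, with Benjamini-Hochberg adjustment over 13497 genes. Genes were called at an adjusted p under 0.05 and a fold change over 2. Standard errors are the size of the log2 fold change over the square root of F. The steps were tested on simulated data. Alternatives were DESeq2 1.42.0, other scalings, filters and call rules, each library left out and the replicate number as a block. Chi-square per degree of freedom was at least 3.88 for each pair of libraries, above the level of sampling noise, and each was counted as a sample of its own.

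The members, lists and tests were chosen with earlier results of these data known. Named were all members, Stat2, Tbk1 and Ikbke, per pathway list up to 4 called genes each way that reached 100 counts throughout their higher group, and the 3 genes nearest in pattern to each called member. Some genes that the rule or the lists hold are not reported here. Human symbols were matched without regard to case.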

Additional observations from a re-analysis of the deposited data

How the results depend on the processing

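Over 15 alternative settings for each member, no direction reversed. Irf7 and Irf5 stayed called throughout, with log2 fold changes of 2.63 to 2.69 and 1.64 to 1.99. Without a fold-change threshold 5 members were higher and 2 lower, with 4952 genes higher and 4960 lower in all, and the filter of at least 10 counts in every sample called 903 genes higher. That filter leaves out genes near 0 in the controls, and under it 3 leukocyte, 2 lung and 0 kidney markers were called higher and Ifnb1 was not tested. With each library left out in turn, between 0 and 1 members were called lower, 0 without KD replicate 2. Irf1 passed a test against a fold change of 1.5 (log2 fold change 0.91). With the replicate number as a block (replicate block), 3 members were called higher and 1 lower, as without it. Deviations of same-numbered libraries correlated at 0.04, −0.01 and −0.02, and those of differently numbered ones at −0.02 to 0.04. These values show no pairing by number, but with 3 libraries in each group they cannot exclude a shared batch. A count of 0 allows up to 3 counts, for counting error only, which limits what can be said of most interferon genes.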
